A study of Mus musculus with 6 samples.

Results

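Interferon-stimulated genes are the genes that cells switch on when they sense interferon, and the 39 of them listed here cover the receptors, a signalling factor, sensors of viral RNA and the antiviral effectors. Of these, 38 are protein-coding in the mouse annotation used (GENCODE vM21 on mm10) and form the set described, out of 21755 protein-coding genes. Mx2, which is annotated as a polymorphic pseudogene, is given separately. The genes were listed by name and not by a threshold on any value, though earlier results of these data were known when the list was made. What was read for each gene was the presence and strength of H3K27ac, the acetylation of histone H3 found at promoters and enhancers in use, in alveolar macrophages (AMs) that had received no stimulus named in the labels.

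The cells were AMs, the resident macrophages of the airspaces, recovered by bronchoalveolar lavage from 9-week-old wild-type C57BL/6J mice, fixed, sorted by flow cytometry and profiled by HT-ChIPmentation, a chromatin immunoprecipitation in which the Tn5 transposase adds the sequencing adapters. There was 1 library with an Active Motif anti-H3K27ac antibody and 2 replicates with a Cell Signaling anti-H3K27ac antibody, and 3 input libraries (chromatin with no immunoprecipitation), which enter here only through the enrichment values of the deposited peaks. The labels name the target of the Active Motif library only as H3, and that it is H3K27ac comes from the study's methods. The antibody, the sequencing run and the read length changed together between the Active Motif library and the Cell Signaling pair, so that their parts in any difference cannot be told apart. The methods name more than a single sonicator for H3K27ac without tying each to a library. The labels do not say whether the Cell Signaling replicates came from separate mice.

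The peak lists held 36364 peaks over 26.1 Mb for Active Motif, 56175 peaks over 45.8 Mb for Cell Signaling replicate 1 and 49139 peaks over 59.8 Mb for Cell Signaling replicate 2. A missing peak means that none was called in that library at its depth, not that the mark was absent. All 12 AM markers (among them Siglecf, Itgax, Marco, Chil3 and Pparg) had a promoter peak in every library. Of the markers of other cells, T and NK cell genes had peaks at 0, 1 and 1 of 8 promoters in the 3 libraries (in the order Active Motif, Cell Signaling replicate 1, Cell Signaling replicate 2), with Klrb1c at folds over input of 5.0 and 7.63 in the replicates. B cell genes had them at 0, 1 and 1 of 5, with Ms4a1 at folds of 4.18 and 41.2 in the replicates. Neutrophil genes had them at 1, 2 and 2 of 6, with Csf3r at 8.83, 8.46 and 27.05 and S100a8 at 8.46 and 18.3 in the replicates. Endothelial genes had them at 1, 1 and 2 of 5, with Pecam1 at 19.6, 41.9 and 38.8 and Vwf at 38.8 in replicate 2. Some markers of other cells thus had strong peaks in the promoter window, and whether such cells were present was not tested. Within 5 kb of a start, peaks covered 1614, 2950 and 4380 bases at Ms4a1 and 1885, 2739 and 3948 at Vwf. Acetylation near these 2 genes was thus called in every library, although their high promoter folds were in replicate 2 alone. Epithelial genes stood at 0, 5 and 1 of 10, with fold enrichments of 5.0 to 6.92 in replicate 1 and of 7.07 (Epcam) in replicate 2. Sftpc, Sftpa1, Sftpb, Foxj1 and Ager had no promoter peak in any library. Within 5 kb, peaks covered 0, 3533 and 0 bases at Nkx2-1, 0, 993 and 2344 at Epcam, and 718, 1017 and 975 at Ager. At Sftpc, Sftpa1, Sftpb and Foxj1 they covered 0 bases in every library. Of 5 genes of plasmacytoid dendritic cells, the specialised interferon producers, Bst2, Tcf4 and Irf7 had a peak in all 3 libraries and Siglech and Ccr9 in none.

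Type I interferons bind the receptor formed by IFNAR1 and IFNAR2, whose kinases JAK1 and TYK2 phosphorylate STAT2 and lead to the assembly of the complex ISGF3, which holds STAT2 and IRF9 and binds the interferon-stimulated response element (ISRE) in the promoters of the induced genes. Type II interferon acts through IFNGR1 and IFNGR2 and leads to binding at a different element, the gamma-activated site (GAS). AMs are among the first cells to meet inhaled viruses, and macrophages are known to keep a low tonic level of interferon signalling.

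The ISRE core searched here was GAAANNGAAA, read on either strand (TTTCNNTTTC on the other). The following stretches are the 180 bases just before the start of 8 effector genes (GRCm38.p6, the same assembly as mm10, printed along the gene's own strand), with every ISRE core in capitals. The start used was the RefSeq start, except at Gbp3 and Ifit1, where it was the GENCODE start a little upstream of it. The 8 stretches are shown because they carry the same element while their acetylation differed. Isg15 (chr4:156200819-156200998, minus strand), Bst2 (chr8:71537473-71537652, minus strand) and Gbp7 (chr3:142530156-142530335, plus strand) had a promoter peak in all 3 libraries:
Isg15: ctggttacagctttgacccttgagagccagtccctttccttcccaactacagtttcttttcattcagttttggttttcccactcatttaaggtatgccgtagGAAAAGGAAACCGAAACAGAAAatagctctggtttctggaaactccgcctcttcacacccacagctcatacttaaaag
Bst2: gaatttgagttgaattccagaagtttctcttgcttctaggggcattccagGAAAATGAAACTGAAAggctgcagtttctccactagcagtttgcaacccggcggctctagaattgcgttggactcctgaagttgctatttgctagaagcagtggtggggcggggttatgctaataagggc
Gbp7: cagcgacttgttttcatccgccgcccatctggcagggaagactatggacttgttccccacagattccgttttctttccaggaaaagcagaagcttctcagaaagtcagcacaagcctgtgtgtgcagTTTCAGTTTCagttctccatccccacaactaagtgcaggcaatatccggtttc
Gbp3 (chr3:142559846-142560025, plus strand) and Oas1a (chr5:120907526-120907705, minus strand) were marked at the promoter in the Cell Signaling replicates but not in Active Motif, and Ifit3 (chr19:34583349-34583528, plus strand) had a peak in Cell Signaling replicate 2 only:
Gbp3: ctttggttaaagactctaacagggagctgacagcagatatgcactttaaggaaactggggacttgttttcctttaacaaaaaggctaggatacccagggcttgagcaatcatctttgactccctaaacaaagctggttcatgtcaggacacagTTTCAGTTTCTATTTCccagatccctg
Oas1a: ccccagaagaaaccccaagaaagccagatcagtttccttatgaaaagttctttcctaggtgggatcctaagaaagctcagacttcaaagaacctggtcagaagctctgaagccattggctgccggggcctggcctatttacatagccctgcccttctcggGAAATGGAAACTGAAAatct
Ifit3: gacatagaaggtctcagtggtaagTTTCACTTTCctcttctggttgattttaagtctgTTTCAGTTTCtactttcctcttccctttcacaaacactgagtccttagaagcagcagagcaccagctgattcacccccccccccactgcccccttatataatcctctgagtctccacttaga
Ifit1 (chr19:34640691-34640870, plus strand) and Rsad2 (chr12:26456453-26456632, minus strand) had no promoter peak in any library:
Ifit1: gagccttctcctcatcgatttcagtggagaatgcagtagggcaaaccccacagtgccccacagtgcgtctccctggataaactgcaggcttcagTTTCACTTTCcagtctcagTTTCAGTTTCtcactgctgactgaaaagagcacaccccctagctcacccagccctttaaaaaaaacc
Rsad2: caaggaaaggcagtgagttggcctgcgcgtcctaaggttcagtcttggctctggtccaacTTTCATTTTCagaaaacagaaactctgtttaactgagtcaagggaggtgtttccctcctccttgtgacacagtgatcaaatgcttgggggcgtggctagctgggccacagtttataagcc
For contrast, the promoter of the receptor gene Ifngr2 (chr16:91546879-91547058, plus strand), with peaks in all 3 libraries, held no ISRE core, and here its 22 CpG dinucleotides are in capitals:
Ifngr2: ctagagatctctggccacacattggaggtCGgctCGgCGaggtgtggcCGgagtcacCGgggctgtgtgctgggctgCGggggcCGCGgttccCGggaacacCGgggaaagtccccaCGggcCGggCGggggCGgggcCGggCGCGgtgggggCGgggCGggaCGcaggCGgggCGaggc

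A gene was counted as marked when at least 1 bp of a peak fell within 1 kb of any annotated transcription start site (TSS) of that gene. By that rule 17 of the 38 genes (44.7%) were marked in Active Motif, 25 (65.8%) in Cell Signaling replicate 1 and 24 (63.2%) in Cell Signaling replicate 2. Over all protein-coding genes the shares were 41.3%, 48.2% and 49.2%. The set was thus close to the background in Active Motif, and above it by more in the Cell Signaling replicates. All 17 genes marked in Active Motif were marked in both Cell Signaling replicates too, so that 17 of 38 (44.7%) had a peak in all 3 libraries, against 41.2% of all genes. At the other end 12 of 38 (31.6%) had none in any library, against 49.4% of all genes. A further 6 genes (15.8%, against 5.7% of all genes) were marked in both Cell Signaling replicates and not in Active Motif, and 3 were marked in a single Cell Signaling replicate.

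By role, all 4 receptor subunits, Stat2 and 3 of 4 RNA sensors were marked in all 3 libraries. Of the 29 effector genes, 9 (31%) were, against 41.2% of all genes: Isg20, Eif2ak2, Oasl1, Isg15, Bst2, Gbp2, Gbp7, Ifi35 and Parp14. The 12 genes with no promoter peak were effectors too (41.4% of the 29, against 49.4% of all genes): Ifit1, Ifit2, Oas2, Oas3, Usp18, Ifitm2, Ifitm3, Ifitm6, Mx1, Rsad2, Cmpk2 and Ifi44.

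**Figure D1:**
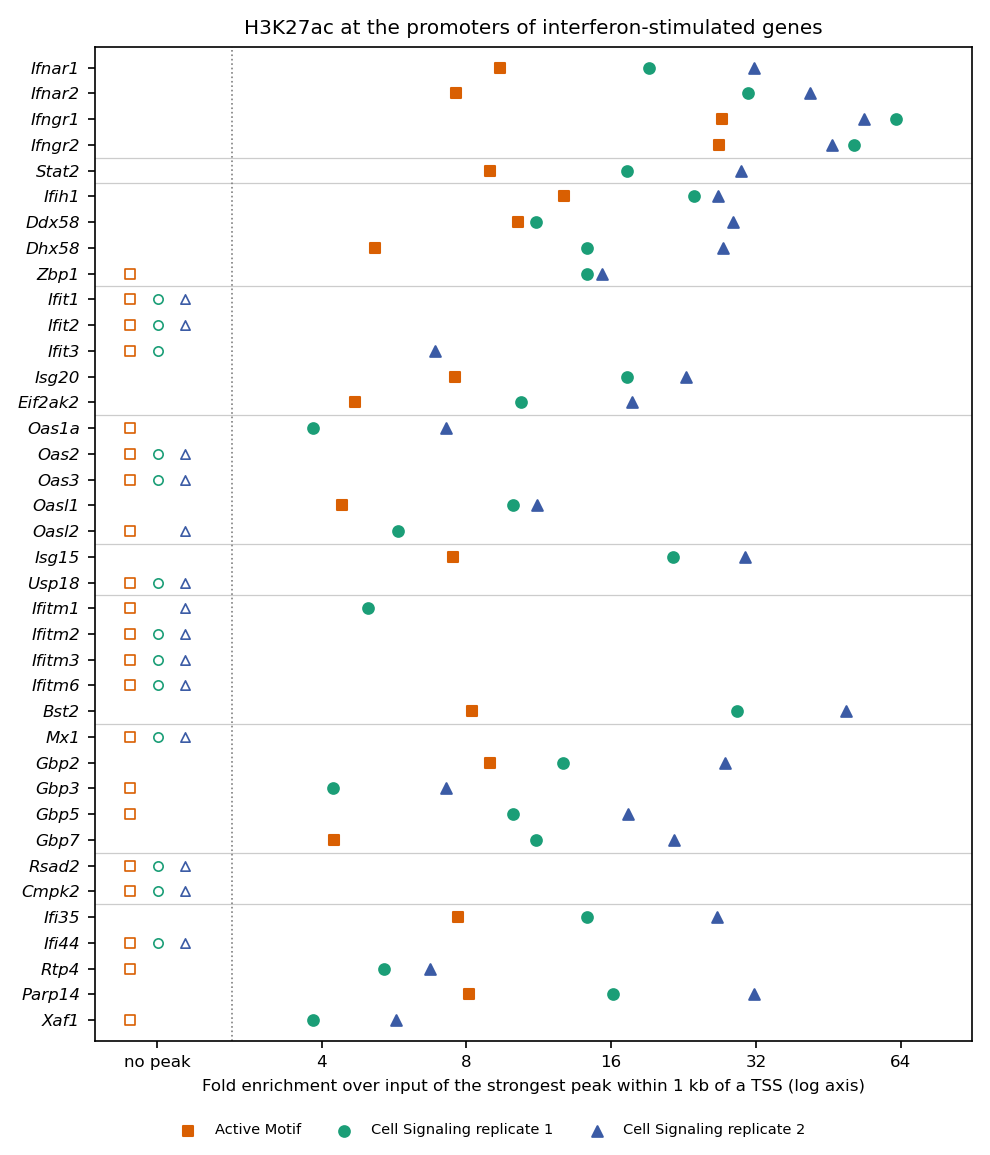
Fold enrichment over input (log axis) of the strongest peak within 1 kb of a TSS, for each of the 38 genes in order of role (grey lines separate roles) and for each library (square, circle and triangle). Open symbols at the left mark libraries with no promoter peak. Ifngr1 holds the highest value in each library, up to 62.7, Bst2 lies above the other receptors in replicate 2, and the 12 genes with 3 open symbols are effectors.

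Where a promoter was marked, its strength was taken as the fold enrichment over input of its strongest peak, as the authors' peak caller gave it. Absolute folds differed between libraries, so a percentile among all marked genes of the same library is given where it helps. Among the marked genes of the set the median fold was 8.10 in Active Motif, 14.2 in replicate 1 and 26.6 in replicate 2. Over all marked protein-coding genes the medians were 11.1, 19.2 and 26.9. The order of the genes was much alike in the Cell Signaling replicates: over the 23 genes marked in both, the log2 folds had a Pearson r of 0.924 and a Spearman rho of 0.892. Between Active Motif and the replicates, over 17 genes, r was 0.829 and 0.725 and rho was 0.603 and 0.653. These are descriptions across genes of the same libraries, which share depth and mappability, and genes are not independent replicates. Summits lay a median of 307, 297 and 243.5 bp from the nearest TSS in the 3 libraries.

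Of the 38 genes, Ifngr1 had the highest promoter fold in each library and Ifngr2 the next highest in Active Motif and replicate 1, whereas in replicate 2 the effector Bst2 (49.3) stood between them. At Ifngr1, which encodes the ligand-binding chain, the fold was 27.3 in Active Motif, 62.7 in replicate 1 and 53.7 in replicate 2, which placed it at percentiles 93.9, 97.9 and 98.5 of marked genes. The region shared by both replicates spanned 4609 bp (chr10:19590648-19595256). At Ifngr2, the signal-transducing chain, the folds were 26.8, 51.1 and 46.0, within a shared region of 4788 bp (chr16:91545699-91550486). Both genes were thus near the top of the scale in all 3 libraries.

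The type I receptor chains were marked in all 3 libraries with lower values than the type II chains in each. Ifnar1 had folds of 9.38, 19.2 and 31.7, at percentiles 40.0, 49.9 and 61.7. Ifnar2 had folds of 7.60, 30.8 and 41.4, at percentiles 27.4, 72.4 and 83.6. Ifnar1 thus lay near the middle of the marked genes, and Ifnar2 lay in the lower part in Active Motif and the upper part in the replicates. The regions shared by both replicates spanned 1697 bp at Ifnar1 and 2310 bp at Ifnar2.

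Stat2, the subunit that gives ISGF3 its transactivation domain, had folds of 8.95, 17.3 and 29.8. Its single ISRE core, 222 bases before the RefSeq start, was inside a peak in every library. Among the cytosolic sensors, Ifih1 (MDA5, which binds long double-stranded RNA) had 12.8, 23.8 and 26.6, and Ddx58 (RIG-I, which binds RNA ends with triphosphates) had 10.2, 11.1 and 28.7. Dhx58 (LGP2, a regulator of both) had 5.18, 14.2 and 27.4. These 3 sensor genes were marked everywhere, with Dhx58 at percentile 9.24 in Active Motif. In replicate 2 the summit of the Dhx58 peak lay 1387 bp after the TSS, so the gene is not counted there when the summit itself must fall in the window. In replicate 1 the summit of its strongest peak lay 1438 bp after the TSS, and a peak nearer the TSS had a fold of 8.07. In Active Motif a peak of fold 10.9, from 1027 to 1531 bp after the TSS, fell just outside the window. The 3 Dhx58 folds are thus not of the same peak. Zbp1, a sensor of left-handed nucleic acids that starts necroptosis, had no peak in Active Motif, and folds of 14.2 and 15.3 in the replicates.

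Of the IFIT family, which binds viral RNA caps and ends, Ifit1 and Ifit2 had no peak within 5 kb of a TSS in any library. Ifit3 had a single 320-bp peak in replicate 2, of fold 6.89, at percentile 5.61. Both ISRE cores of Ifit3 printed above lay outside that peak, whose summit was 432 bp before the start. Only 51.3% of the 50-base words within 1 kb of the Ifit3 start occurred once in the genome, the lowest share of the set, so a peak there is uncertain in either direction. Over the whole cluster from Ifit2 to Ifit1 (99.3 kb of chromosome 19, 6 protein-coding genes), peaks covered 0% in Active Motif, 0.364% in replicate 1 and 1.96% in replicate 2. Of its other genes, Ifit3b, a close copy of Ifit3, had promoter folds of 9.61 in replicate 1 and 9.61 in replicate 2, and Ifit1bl1 had 4.22 and 9.83. Ifit1 shares its start region with Ifit1bl2, which begins 128 bp away on the opposite strand.

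The other RNA-directed effectors differed from the IFIT genes. Isg20, an exonuclease of single-stranded RNA, had folds of 7.58, 17.3 and 22.9. Eif2ak2 (PKR, the kinase that stops translation when it binds double-stranded RNA) had 4.69, 10.4 and 17.7. In Active Motif the Eif2ak2 peak was only 111 bp wide and did not pass a q-value of 1e-05, so the gene was weakly marked there.

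The OAS enzymes make the oligoadenylates that activate RNase L. Oas2 and Oas3 had no peak within 5 kb in any library. Oas1a had none in Active Motif, a 98-bp peak of fold 3.84 in replicate 1 and a 361-bp peak of fold 7.26 in replicate 2, at percentiles 1.44 and 6.29. The summits lay 7 bp and 82 bp before the TSS, and both overlapping cores of the printed Oas1a promoter were inside a peak in each replicate. Across the Oas cluster (177 kb of chromosome 5, 8 protein-coding genes) peaks covered 0%, 0.455% and 1.04%, and the highest fold, 12.3 in replicate 2, was at the promoter of Oas1c. Around Oas1a 81.7% of the 50-base words occurred once in the genome, against 100% around Oas2 and 96.4% around Oas3. The OAS-like genes lie elsewhere on the chromosome. Oasl1, which in mice restrains interferon production, had folds of 4.42, 9.99 and 11.2, with the Active Motif summit 1017 bp before the start. Its neighbour Oasl2 had a 119-bp peak of fold 5.77 in replicate 1 only.

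Isg15, the ubiquitin-like protein that is joined to other proteins in infected cells, had folds of 7.52, 21.5 and 30.4, and its 3 overlapping ISRE cores were inside a peak in all libraries. Peaks covered 1510, 3268 and 4111 bases within 5 kb of its start, more than at any other effector gene in each library. Only part of this was the promoter peak, which was 592, 1183 and 1254 bp wide, narrower than that of Gbp2 (1340, 1389 and 1796 bp). A separate peak over 2 kb after the start had higher folds, of 11.9, 29.2 and 39.4. That peak is among the bases counted, but it lay past the end of the gene (chr4:156199424-156200818). Which gene it serves was not tested. Usp18, the protease that removes ISG15 and blocks the type I receptor, had no promoter peak and no peak within 5 kb in any library. The modifier and its eraser thus differed in all 3 libraries.

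Of the membrane-acting proteins, Bst2 (tetherin, which holds budding virions at the cell surface) had the strongest effector promoter in both Cell Signaling replicates. Its folds were 8.23, 29.2 and 49.3, at percentiles 32.7, 69.8 and 95.2, and its 2 overlapping ISRE cores were inside a peak in each library. The IFITM proteins, which block fusion of viruses with endosomes, had few called peaks. Ifitm2, Ifitm3 and Ifitm6 had no promoter peak. Ifitm1 had a 279-bp peak of fold 5.0 in replicate 1 only, with its summit 1086 bp after the nearest TSS. Over the Ifitm cluster (63.1 kb of chromosome 7) peaks covered 0% in Active Motif, 0.823% in replicate 1 and 0% in replicate 2. Epithelial genes also had most of their peaks in replicate 1, as given above, and whether such cells had a part in the peaks called in replicate 1 alone was not tested. Just outside the promoter window of Ifitm2, peaks covered 369 bases in replicate 1 and 1016 bases in replicate 2 within 5 kb of its start, so that this gene would be counted in both replicates with a window of 2 kb. Those peaks, however, lay past the end of this short gene (chr7:140954837-140955987, minus strand).

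The antiviral GTPases were split. Mx1, whose allele in C57BL/6 mice is known to be defective, had no promoter peak. Mx2 had none in Active Motif, and folds of 8.84 and 14.9 in the replicates, with summits 32 bp and 61 bp after the start. The guanylate-binding proteins attack the vacuoles of intracellular pathogens, and 4 of their genes lie in a cluster on chromosome 3. Gbp2 had folds of 8.95, 12.7 and 27.6, and Gbp7 had 4.25, 11.1 and 21.6. Gbp3 had no peak in Active Motif, and 4.23 and 7.26 in the replicates. Gbp5, which helps assemble the inflammasome, had none in Active Motif, and 9.99 and 17.3 at a start 2.92 kb after the gene's 5′ end. The peaks at the 5′ end of Gbp5 itself had lower folds, of 4.62 and 10.2. From high to low the order was Gbp2, Gbp7, Gbp5 and Gbp3 in both replicates, with either start of Gbp5. At Gbp3 the peaks began after the start: the printed cores, 45 and 39 bases before the RefSeq start, lay outside the peaks of both replicates. The core of Gbp7, 53 bases before its RefSeq start, was inside a peak in all 3 libraries. Over the 144 kb of the cluster, peaks covered 1.04%, 2.67% and 4.50%.

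Rsad2 (viperin, which makes a nucleotide that stops viral RNA synthesis) and its neighbour Cmpk2, a nucleotide kinase, had no promoter peak in any library. Over the 37.1 kb that hold both genes the only peak was 80 bp wide, of fold 4.18, in replicate 1. Among the remaining effectors, Ifi35, a partner of NMI, had folds of 7.67, 14.2 and 26.5, and Parp14, an ADP-ribosyltransferase, had 8.10, 16.1 and 31.7. Rtp4 had none in Active Motif, and 5.38 and 6.71, and Xaf1, a pro-apoptotic partner of XIAP, had none, 3.84 and 5.71. Xaf1 and Rtp4 were thus at the weak end in both replicates. The marked Rtp4 start lies 89.6 kb after the 5′ end of the gene's annotated record. A start of Masp1, on the opposite strand, lies 357 bp from a start of Rtp4. Which of the Rtp4 starts that is was not resolved here. Ifi44 had no peak within 5 kb in any library.

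**Figure D2:**
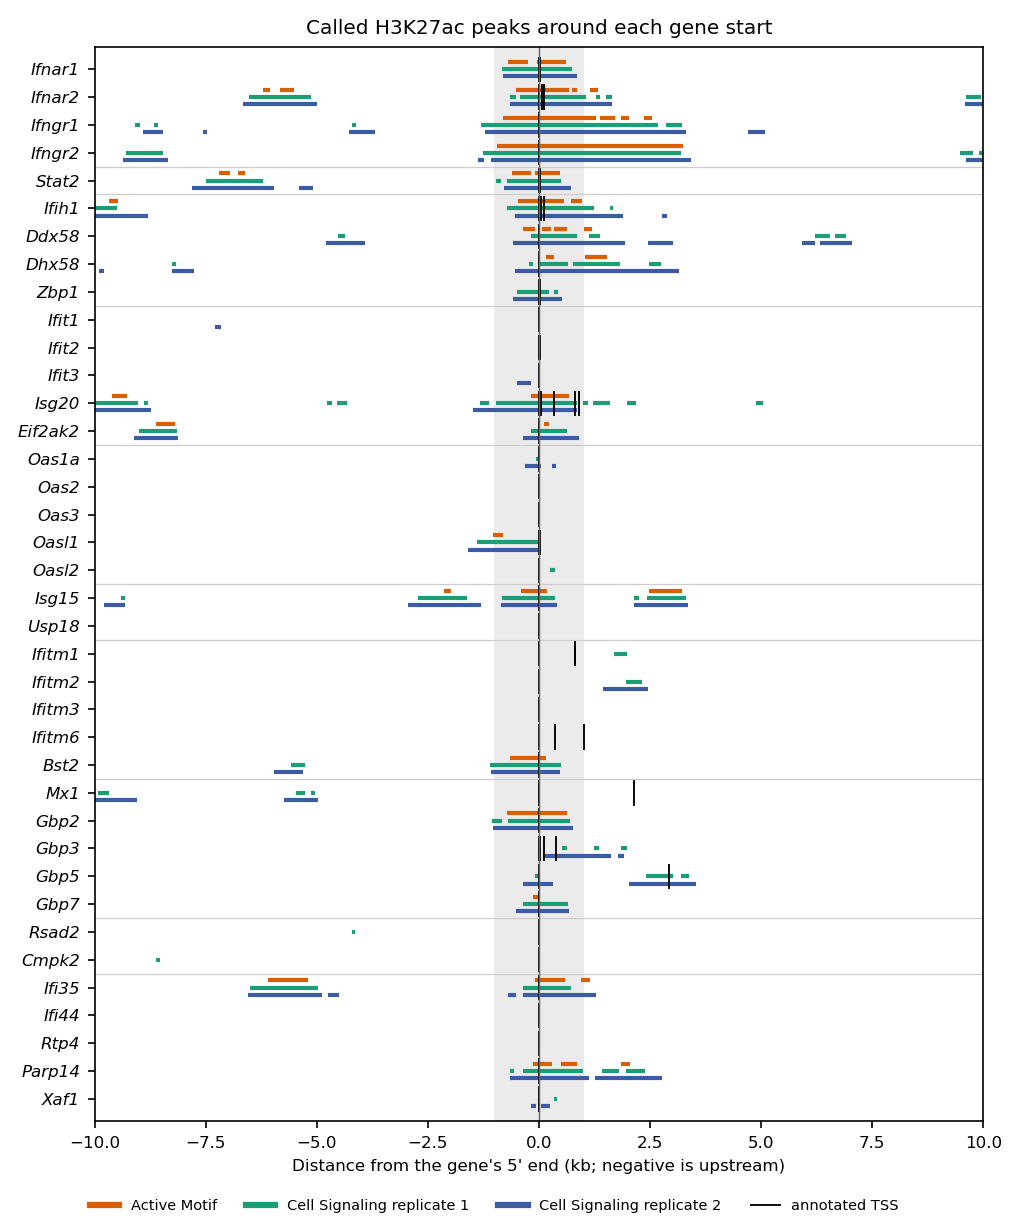
Called peaks within 10 kb of the 5′ end of each gene (x axis in kb, negative upstream), 1 bar per peak and a colour per library, with annotated TSSs as black ticks and the 1-kb window shaded. The bars of Ifngr1 and Ifngr2 run for several kb across the start, those of Oas1a and Xaf1 are short, and the rows of Ifit2, Oas2, Oas3, Usp18, Ifitm3, Ifitm6 and Ifi44 are empty. The peaks of Rtp4 lie at a start 89.6 kb from its 5′ end and fall outside the map.

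The width of the mark was read as the bases covered by peaks. Within 5 kb of the best TSS of a gene, peaks covered from 0 to 4185 bases in Active Motif, from 0 to 4466 in replicate 1 and from 0 to 5401 in replicate 2, with the highest value at Ifngr2 in the first 2 and at Ifngr1 in the last. The medians over the 38 genes were 0, 685 and 1160.5 bases, against 0, 142 and 434 over all protein-coding genes. Among marked genes only, the set was narrower than the rest: its medians were 1001, 1412 and 1731 bases, against 1277, 1758 and 2015. Ifngr1 had 2818, 4447 and 5401 bases covered, while Gbp7 had 156, 1000 and 1201.

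Distal regions, with midpoints over 3 kb from any protein-coding TSS, were made by merging the peaks of both Cell Signaling replicates and keeping those that hold a peak of each, and each was given to its nearest protein-coding TSS. Of the 38 genes, 9 (23.7%) had at least 1 such region, against 26.9% of all genes, and the mean was 0.763 regions per gene against 0.851. Both values were a little under the background, but the count rested on the need for both replicates. From replicate 1 alone 14 genes (36.8%, against 32.5% of all genes) had a region, and from replicate 2 alone 12 (31.6%, against 32.7%), so the side of the background on which the set lay changed. The receptors held 20 of the 29 regions: 11 at Ifngr1, 5 at Ifngr2 and 2 each at Ifnar1 and Ifnar2. Mx1 had 3, Ddx58 and Parp14 had 2 each, and Eif2ak2 and Usp18 had 1 each. The nearest gene is not shown to be the target of a region.

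The strongest distal region lay 24.0 kb upstream of Ifngr2 (chr16:91521275-91524966, 3692 bp, intergenic), with folds of 25.8 in Active Motif, 68.4 in replicate 1 and 53.7 in replicate 2. In the replicates these exceeded the folds at the Ifngr2 promoter itself. An intronic region 14.8 kb inside Ifngr2 had folds of 7.81, 20.4 and 20.7. At Ifngr1 all 11 regions were upstream and intergenic, from 3.98 to 86.3 kb away, and the farthest was the strongest, with 15.3, 27.8 and 28.5 (chr10:19503825-19507487). Of those 11, 4 held an Active Motif peak. The type I receptors had their regions upstream as well. For Ifnar2 the nearer one, 5.82 kb away, had 4.12, 21.9 and 13.7. For Ifnar1 the stronger one, 23.7 kb away, had 6.82, 9.33 and 14.4. Ifnar2, Ifnar1 and Ifngr2 lie together with Il10rb on chromosome 16, and over the 193 kb that hold them peaks covered 7.44%, 11.3% and 13.7%, against at most 5.01% in any library over the other gene clusters described here.

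Outside the receptors, distal regions were few. Parp14 had 2 upstream regions, the farther of which, at 32.4 kb, had folds of 6.82, 19.2 and 18.3. The region 8.62 kb upstream of Eif2ak2, in an intron of Sult6b1, had 6.94, 9.08 and 18.8. The 3 regions nearest Mx1, which had no promoter peak, were upstream of it, with folds from 3.84 to 9.93 and no Active Motif peak, and 2 of them were in introns of Fam3b. For Usp18, also without a promoter peak, a region 26.6 kb after the start had folds of 3.46 and 10.7 in the replicates. Of the 29 regions, 14 (48.3%) held an Active Motif peak, against 51.8% of the 18508 regions of all genes. By position, 23 were intergenic and 6 intronic.

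**Figure D3:**
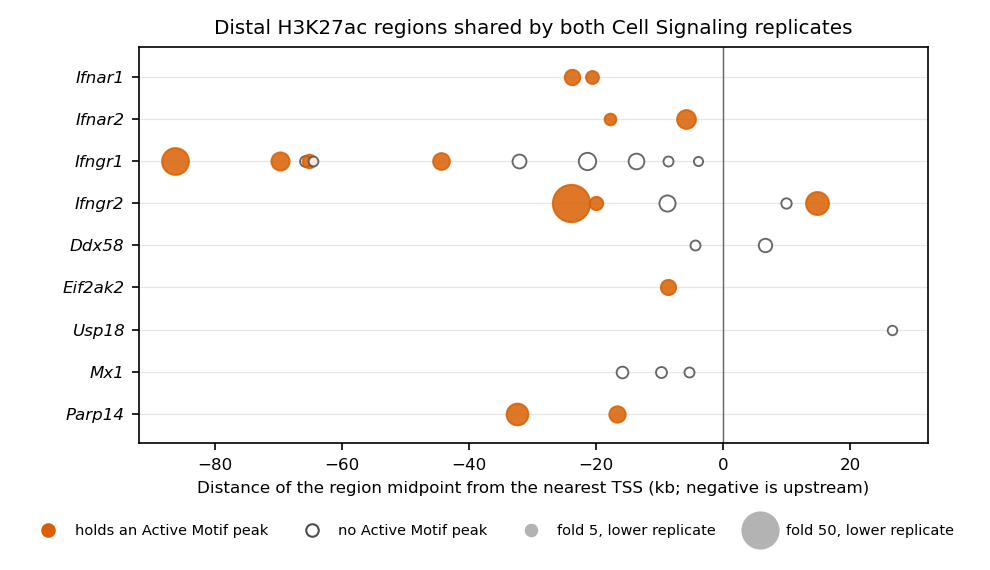
Distal regions of the 9 genes that have any, by signed distance of the region's midpoint from the nearest TSS (x axis in kb, negative upstream). The area of a circle is proportional to the lower of the fold enrichments in the Cell Signaling replicates, and filled circles hold an Active Motif peak. Ifngr1 has 11 circles, all upstream, and the largest circle is the region 24.0 kb upstream of Ifngr2.

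The promoter sequences were then set beside the acetylation. RefSeq promoter entries, from 250 bases before to 50 bases after the start, matched 31 of the 38 genes, with 35 promoters in all. Dhx58, Zbp1, Oas2, Usp18, Mx1, Rtp4 and Parp14 had no entry. An ISRE core stood in 17 of the 35 promoters (48.6%), against 3.44% of all 32851 promoters. The GAS core TTCNNNGAA, which reads the same on both strands, stood in 12 (34.3%, against 8.30%). The composite ETS-IRF core GGAANNGAAA, read on both strands, stood in 4 (11.4%, against 2.72%). Of the 14 GAS cores 2 overlapped an ISRE core, as did 1 of the 5 ETS-IRF cores. A match is a run of letters in the reference and was not tested as a binding site.

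ISRE cores were present both in marked and in unmarked genes. An ISRE core was found in 8 of the 15 genes marked in all 3 libraries, in 4 of the 7 marked in some and in 5 of the 9 marked in none. Of the 25 cores, 9 lay inside an Active Motif peak and 14 inside a peak of each Cell Signaling replicate. Overlapping cores, as at Isg15, Bst2, Oas1a and Gbp3, were counted separately, so these are not independent sites. The share of ISRE cores inside a peak over all promoters was not computed. The cores of Ifit1, Rsad2, Oas3, Ifitm2 and Ifitm3 lay in no peak, whereas those of Isg15, Bst2, Gbp2, Gbp7, Stat2 and Ifih1 were covered in all 3 libraries. None of the receptor promoters had an ISRE core, and Ifnar1 and Ifnar2 each had a GAS core.

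The number of CpG dinucleotides was highest in the genes marked throughout. The median was 14 per 300-base promoter in the genes marked in all 3 libraries (range 2 to 31), 3 in those marked in some (1 to 6) and 5 in those marked in none (2 to 11), against 7 over all promoters. Ifngr2 had 31 and Ifnar1 had 26, as the dense capitals of the printed Ifngr2 promoter show, while Ifit3 had 1, Ifitm6 had 2 and Oas1a had 3. The ranges overlapped: Gbp2 and Ifi35 had 2 and 3 and were marked in all 3 libraries, and Ifit2 had 11 and was marked in none. Genes were also split at the median of 7 over all promoters. Above it, 11 of 13 members (84.6%) were marked in all 3 libraries, against 60.4% of 10852 protein-coding genes with an entry. At or below it, 4 of 18 members (22.2%) were, against 10.4% of 5598 genes. A peak in at least 1 library was found at 11 of 18 members in that CpG-poor class (61.1%, against 17%). These are counts of a named list beside a background, with no test.

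**Figure D4:**
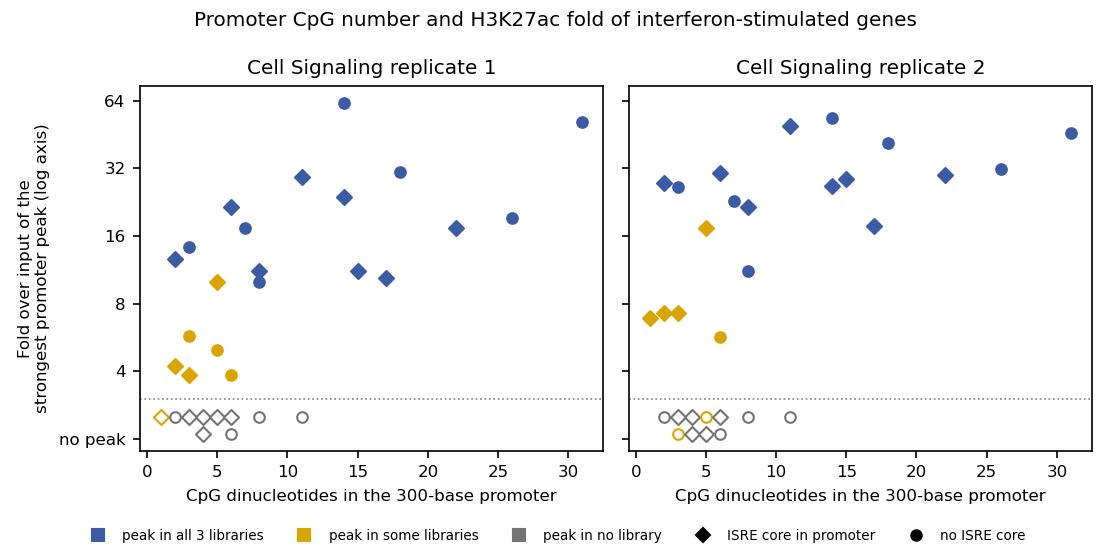
CpG dinucleotides in the 300-base promoter (x axis) against the fold enrichment of the strongest promoter peak (log axis) in each Cell Signaling replicate, for the 31 genes with a promoter entry. Diamonds hold an ISRE core, circles do not, colours give the libraries with a promoter peak, and open symbols under the dotted line have no peak in that replicate, with overlapping ones stacked. Diamonds run from no peak up to Bst2 (29.2 in replicate 1 and 49.3 in replicate 2), while the highest symbol in each replicate, Ifngr1, is a circle. No gene with more than 11 CpGs is without a peak.

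The rest of the pathway was read from lists named for their function. None of the 12 interferon genes (Ifnb1, Ifna1, Ifna2, Ifng and others) had a promoter peak in any library. Of 11 signal transducers 10 were marked in all 3 libraries, the exception being Ifnlr1, the chain specific to type III interferon, which had no peak. The kinases Jak1 and Tyk2 had folds of 12.7, 31.1 and 22.6 and of 7.85, 19.6 and 22.6, and Jak2 had 7.67, 15.4 and 24.5. Irf9, the DNA-binding subunit of ISGF3, had 5.13, 10.8 and 16.2, below Stat2 in every library.

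Of the interferon regulatory factors, 6 were marked in all 3 libraries, among them Irf1 (14.1, 16.9 and 37.5), Irf2 (17.9, 41.1 and 42.9) and Irf3 (14.3, 24.2 and 33.8). Irf4 had a peak in replicate 2 only, of fold 5.97. Of 12 genes of nucleic acid sensing upstream of interferon, 10 were marked throughout, such as the endosomal RNA receptors Tlr3 and Tlr7. Tlr9, the endosomal DNA receptor, had none, and the kinase gene Ikbke had folds of 4.23 and 4.81 in the replicates only. In the class I antigen presentation list, 10 of 11 were marked throughout (B2m with 11.6, 43.4 and 46.5), and the exception, the transactivator Nlrc5, had 5.0 and 11.7 in the replicates only. A further 42 interferon-stimulated genes, not among the 38, had 28 marked in all 3 libraries and 7 in none, for example Irgm1 with 14.8, 30.8 and 13.8, and Irgm2 with 8.52, 19.6 and 33.5. These lists were drawn up with results of these data known, and they are given as counts beside the 41.2% of all genes marked in all 3 libraries.

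**Figure D5:**
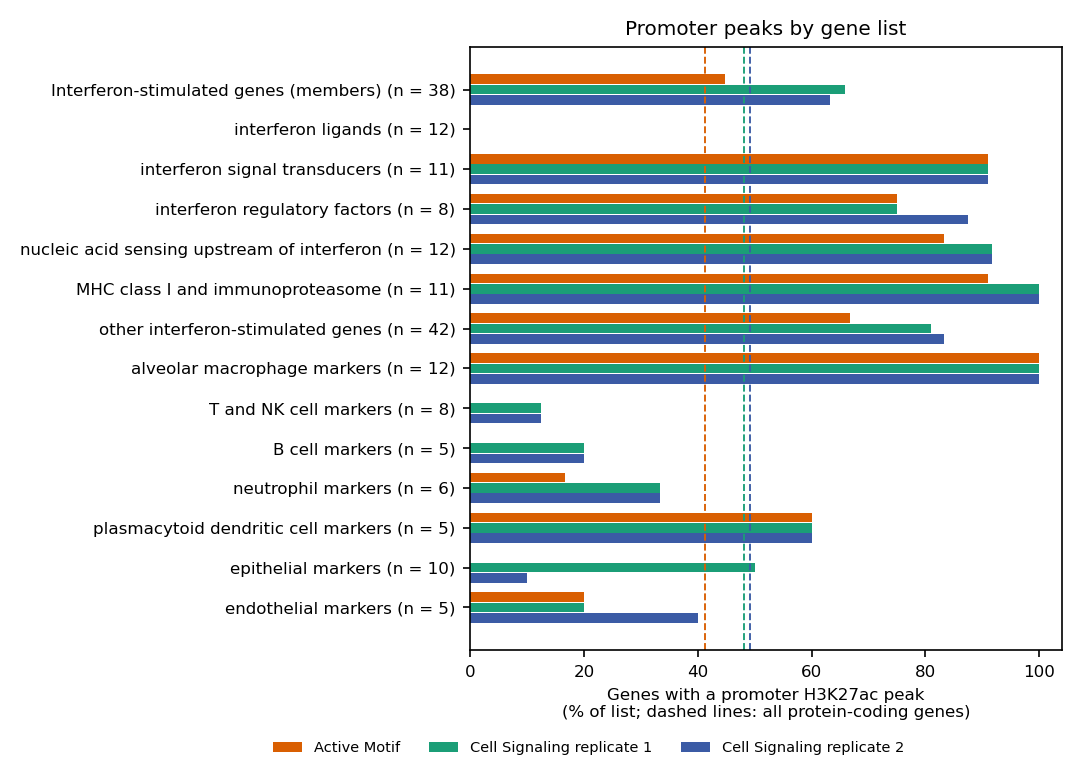
Share of each gene list with a promoter peak (x axis, % of the list) in each library, for the 38 genes, the pathway lists and the cell type markers, with the number of genes in brackets. Dashed lines give the share of all protein-coding genes in the library of the same colour (41.3%, 48.2% and 49.2%). The interferon ligands have no bar, the AM markers reach the full length of the axis, and the 38 genes lie between.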

How the data were processed

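H3K27ac HT-ChIPmentation libraries of AMs were used as the peak lists deposited for them. Per the study's methods, the authors trimmed reads with Cutadapt, aligned them to mm10 with Bowtie2, marked duplicates with Picard, filtered with samtools and called peaks with MACS3 against input at a q-value of 0.05, separately for each library. Submitters' notes name bcl2fastq 2.20.0.422. The deposited columns hold a score, a fold enrichment over input (a linear ratio), and the −log10 of the p-value and of the q-value. Read depth was not used here, so no interval is given, and a missing peak depends on depth.

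Peaks were counted with Python 3.11.15, with at least 1 bp of overlap, on 19 autosomes and X (GENCODE vM21). TSSs were the starts of basic transcripts plus the 5′ end of the gene record. Mx2 is not protein-coding there and was kept apart. Mb21d1 is named Cgas, and Oas1b was left out as not protein-coding. Figures were drawn with matplotlib 3.10.9. Counting was tested on simulated peaks. With 1 Active Motif library and a list chosen by name, no test was run. Alternatives were other windows and distal limits, stricter peaks, equal peak numbers, gene 5′ ends, summits and leaving out each library.

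The members, the pathway and marker lists and the alternatives were chosen with earlier results of these data known. Named genes were all 39 listed, the first 2 to 4 of each pathway list and its exceptions where 5 or fewer, and genes starting within 1 kb of a member. Some genes (Bst2 or Irf7 as markers of plasmacytoid dendritic cells) stand in 2 lists. Some genes of the lists are not reported here by name.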

Additional observations from a re-analysis of the deposited data

How the results depend on the processing

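Of 58 values recomputed under alternatives, 57 stayed within 1.5 times of the reported count or 1 SD between the Cell Signaling replicates of the reported median. These limits are wide. The counts in Active Motif and in all 3 libraries fell from 17 to 14 at a q-value of 1e-05 and still lay inside them. The SD, 336 bases, is of 2 values, and the Active Motif median was 0 in every setting. Staying inside the limits thus does not show that the set kept its place beside the background. The value outside them was the number of genes with at least 1 distal region, 9 with both Cell Signaling replicates. From replicate 1 alone it was 14, where a region needs no support from the other replicate. Over the settings that leave out 1 library it ranged from 12 to 14. The same settings gave 17 to 23 genes marked in all libraries left (the 23 without Active Motif) and 12 to 14 marked in none. Leaving out a library can only keep or raise both of these counts, and their shares over all genes were not computed. At a q-value of 1e-05, Eif2ak2, Gbp7 and Oasl1 were no longer marked in Active Motif, nor Gbp3, Oas1a and Xaf1 in Cell Signaling replicate 1. With the same number of peaks in each library those last 3 were again lost in replicate 1. The summit rule dropped Oasl1 in Active Motif, Ifitm1 in replicate 1 and Dhx58 in replicate 2. With gene 5′ ends alone, Rtp4 was lost in both replicates and Ifitm1 in replicate 1. No paired analysis was possible because these results come from no test and Active Motif has 1 library.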
